A study of Homo sapiens with 8 samples.

Results

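The 35 HOX genes listed in at least 1 of 2 tables of RNA levels from osteosarcoma cells are described here by cluster, by paralogue number and by cell line. They are all the genes whose symbol is HOX followed by A, B, C or D and a number, out of 13703 genes listed in either table. The 143B table lists 32 of them and the HOS table all 35, with HOXA6, HOXA13 and HOXC12 in the HOS table alone. RefSeq has 39 protein-coding HOX genes, and HOXB1, HOXD3, HOXD10 and HOXD12 were not analysed here. The HOXA cluster contributed 11 genes, HOXB 9, HOXC 9 and HOXD 6. The study compared NAT10 knockout with control cells by sequencing of polyadenylated RNA. Its groups are 143B sgNAT10, 143B NC, HOS sgNAT10 and HOS NC, with 2 libraries each. NAT10 is the enzyme that acetylates cytidine in RNA, and 143B is a derivative of HOS, both being established human osteosarcoma lines. The labels name no guide sequence or clone. They are also silent on whether replicate libraries came from separate cultures, so the p-values measure only the spread between these libraries, which may be technical.

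HOX genes encode transcription factors that bind DNA through a homeodomain and give cells along the body axis and the limbs their position. They lie in 4 clusters, HOXA to HOXD, which arose by duplication, so that genes with the same number in different clusters are paralogues. Within a cluster, low numbers lie at the 3′ end and are active early and towards the head, and high numbers lie at the 5′ end and act towards the tail and the tips of the limbs. Cells of the adult skeleton and connective tissue keep much of the HOX pattern of the place they came from.

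Values are FPKM, read fragments scaled to transcript length and to the mapped fragments of the library, as the authors deposited them. Read depth is unknown. Per library, the sum of all listed FPKM lay between 484793 and 798137. The log2(FPKM + 1) values of replicate libraries correlated with r between 0.979 and 0.997 across genes, which are not independent replicates. Log2 changes are differences of log2(FPKM + 1), a scale that understates the change of low genes, and adjusted p-values are limma's with Benjamini-Hochberg adjustment over all genes tested in a line. The smallest p that an exact permutation test can give for any gene with 2 libraries a group is 0.33. NAT10 stood at 9.05 and 7.19 FPKM in 143B sgNAT10, against 16.06 and 19.95 FPKM in 143B NC, and at 21.13 and 19.14 FPKM in the HOS libraries labelled sgNAT10, against 14.86 and 16.22 FPKM in HOS NC. The HOS values go against the label, and every HOS direction below is between libraries as labelled. Ribosomal protein genes took 41.9% and 40.6% of the listed FPKM in 143B sgNAT10, against 27% and 25.4% in 143B NC, and 20.4% and 21.1% in HOS sgNAT10, against 27.8% and 28.2% in HOS NC. The median change over all tested genes was -0.25 in 143B and 0.19 in HOS. Of the osteoblast markers, RUNX2 lay at 0.38 and 1.0 FPKM and COL1A1 at 3.84 and 5.44 FPKM in 143B NC, whereas in HOS NC RUNX2 lay at 3.09 and 3.15 FPKM and COL1A1 at 313.7 and 375.7 FPKM. SP7, IBSP and BGLAP were not analysed here in either line. Summed over the listed osteosarcoma and osteoblast markers, most of it VIM, the level was 502.2 and 793.8 FPKM in 143B sgNAT10, against 1396 and 1823 FPKM in 143B NC. In HOS it was 1802 and 1740 FPKM in sgNAT10, against 1387 and 1579 FPKM in NC. Gene by gene, 5 of 6 tested were called lower in 143B, or 83.3%, beside 25.4% of all genes. In HOS 5 of 8 were called higher, or 62.5%, beside 45.5% of all genes. Of 16 markers of other cell types 4 were listed in each table, and their summed level was between 5.54 and 5.74 FPKM in 143B sgNAT10, 4.80 and 4.98 FPKM in 143B NC, 22.1 and 24.5 FPKM in HOS sgNAT10 and 18.2 and 20.7 FPKM in HOS NC. Of the 3 tested in each line, CD14, of monocytes, fell in 143B (0.08 and 0.0 FPKM in sgNAT10, against 2.06 and 1.45 FPKM in NC, adjusted p = 0.00178), and CDH5, of endothelium, rose in HOS (1.40 and 1.26 FPKM in sgNAT10, against 0.44 and 0.52 FPKM in NC, adjusted p = 7.5e-05). The part of the marker genes, the ribosomal protein share and NAT10 in the HOX results was not tested. Counts after a rescaling without ribosomal protein and MTRNR2L genes are given at the end. In such bulk libraries fewer cells of a type and less RNA per cell cannot be told apart.

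Control cells of both lines carried RNA from all 4 clusters and from low to high paralogue numbers, with HOXB genes at the top. In 143B NC the highest means were those of HOXB2, at 60.8 ± 10.7 FPKM (SD, n = 2), HOXB4, at 52.9 ± 5.24 FPKM, HOXB8, at 49.0 ± 0.537 FPKM, HOXB9, at 30.2 ± 4.36 FPKM, and HOXB7, at 30.0 ± 1.01 FPKM. HOXB2 and HOXB4 overlapped, as did HOXB4 and HOXB8, and HOXB9 and HOXB7, so that these neighbours do not differ beyond their spread. In HOS NC HOXB7 led with 50.1 ± 0.438 FPKM, before HOXB2 with 34.5 ± 1.64 FPKM, HOXC10 with 24.6 ± 0.771 FPKM, HOXC6 with 23.1 ± 0.686 FPKM and HOXB9 with 20.3 ± 2.11 FPKM. The neighbours HOXC10 and HOXC6 were 24.05 and 25.14 FPKM against 22.66 and 23.63 FPKM, without overlap, and HOXC6 was above both HOXB9 libraries. The median of the listed members was 7.79 FPKM in 143B NC and 5.86 FPKM in HOS NC, and HOXB2 stood above 87.8% of listed genes in 143B NC and HOXB7 above 86.8% in HOS NC. At the low end were HOXD1, at 0.780 ± 0.141 FPKM in 143B NC and 0.445 ± 0.0212 FPKM in HOS NC, and HOXA5 in 143B NC, at 1.09 ± 0.262 FPKM.

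**Figure D1:**
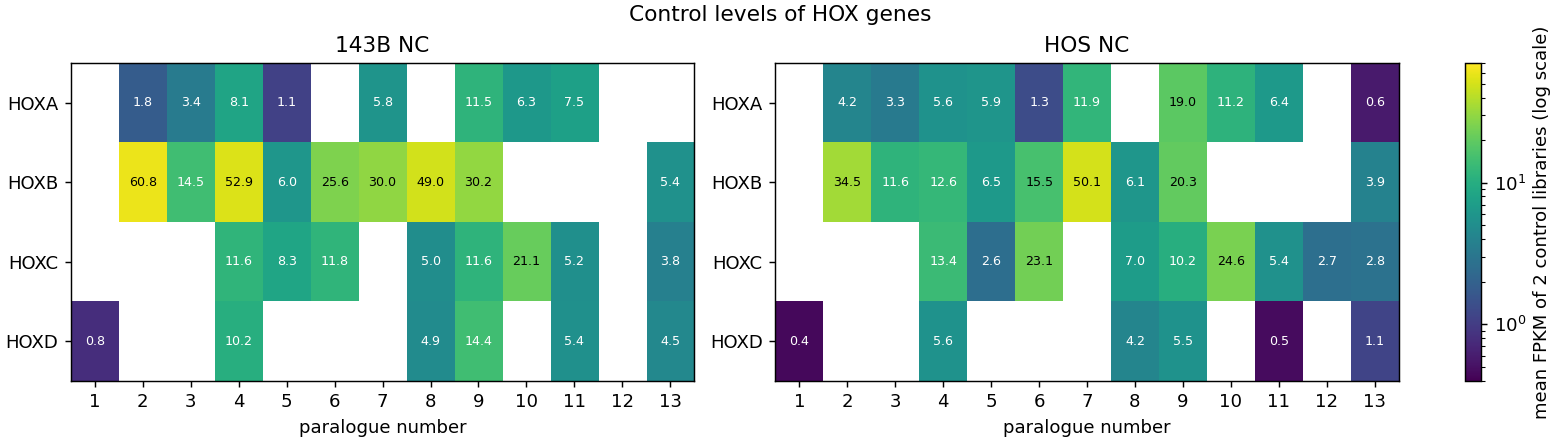
Mean FPKM of the 2 control libraries of 143B (left) and HOS (right), on a log colour scale, for each cluster (rows) and paralogue number (columns); white cells have no value shown. The brightest cells lie in the HOXB row, led by HOXB2 (60.8 FPKM) in 143B and by HOXB7 (50.1 FPKM) in HOS.

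The control patterns of the lines differed gene by gene. The tables were deposited separately for each line, so levels between lines are set side by side with no test. Of the 32 genes listed in both tables, 15 had both 143B NC libraries above both HOS NC libraries, 10 had them below, and 7 overlapped. The same counts were not made over all genes, so these do not set HOX genes apart. HOXD11, which with HOXA11 shapes the forearm in mice, had 6.06 and 4.72 FPKM in 143B NC, against 0.34 and 0.59 FPKM in HOS NC. HOXB8 had 49.42 and 48.66 FPKM in 143B NC, against 6.05 and 6.13 FPKM in HOS NC, a ratio of means of 8.05. HOXB4 was 4.21 times, HOXD13, the digit patterning gene, 3.90 times and HOXC5 3.21 times as high in 143B NC as in HOS NC. In the other direction HOXA5, which in mice is needed for the lung, had 0.90 and 1.27 FPKM in 143B NC, against 5.87 and 5.84 FPKM in HOS NC. HOXA2 had 1.44 and 2.19 FPKM in 143B NC, against 4.06 and 4.39 FPKM in HOS NC, and HOXA7 had 5.72 and 5.91 FPKM in 143B NC, against 11.36 and 12.54 FPKM in HOS NC. Summed over the 32 genes, HOXD made up 9.14% ± 1.06 (SD, n = 2) of the HOX FPKM in 143B NC and 5.13% ± 0.332 in HOS NC, and HOXA made up 10.7% ± 1.92 in 143B NC and 21.0% ± 0.444 in HOS NC.

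In 143B, HOX genes were mostly lower in the sgNAT10 libraries. Of 30 tested members, those with at least 1 FPKM in at least 2 libraries, 13 fell and 1 rose (adjusted p under 0.05), or 43.3% lower and 3.33% higher. Over all 11419 genes 25.4% were called lower and 12.9% higher. The median log2 change of the 30 was -0.78, which is 0.53 below the median of all genes. After correction for transcript length and GC content 13 fell and 4 rose, 43.3% and 13.3%, where 28% of all genes were called lower and 26.8% higher. HOXA2, HOXD11 and 1 other member reached 1 FPKM in NC alone, so they entered the test through the group where they were high, and a fall was the outcome the filter favoured. Without these 3 members, 11 of 27 fell and 1 rose. HOXA5 and HOXD1 were listed but too low to be tested. HOXD1 had 0.09 and 0.09 FPKM in sgNAT10, against 0.68 and 0.88 FPKM in NC. Of the 32 listed members, 25 had both sgNAT10 libraries below both NC libraries, 1 had them above and 6 overlapped. How many of all genes were separated in this way was not counted, so no excess can be read from it. By limma's calls, a different measure, 46.7% of the tested members and 38.3% of all tested genes passed in either direction. When either sgNAT10 library was left out, fewer members and also fewer of all genes were called. Without sgNAT10 replicate 1 the count of falls was 6, without sgNAT10 replicate 2 it was 7, and HOXB2, HOXB3, HOXB6, HOXB8, HOXB9 and HOXD11 are the 6 that passed without each library in turn and under every other alternative that tested them, HOXD11 having entered through NC alone.

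HOXB held the deepest falls, next to genes of the same cluster that were not called. Its median log2 change was -1.67, with 5 of 9 genes lower. HOXB8, which in mouse blood progenitors blocks maturation when forced on, had 2.61 and 1.96 FPKM in 143B sgNAT10, against 49.42 and 48.66 FPKM in 143B NC (log2 -3.94, SE 0.30, adjusted p = 0.000557). Both sgNAT10 libraries were among the low HOX values of the line while both controls were among the highest. HOXB2, which in mice patterns the hindbrain, had 4.06 and 4.99 FPKM in sgNAT10, against 53.18 and 68.32 FPKM in NC (log2 -3.48, SE 0.29, adjusted p = 0.000759). HOXB3 had 1.72 and 2.98 FPKM in sgNAT10, against 10.68 and 18.26 FPKM in NC (log2 -2.19, SE 0.39, adjusted p = 0.00401). HOXB6 had 4.70 and 6.04 FPKM in sgNAT10, against 25.29 and 25.99 FPKM in NC (log2 -2.07, SE 0.30, adjusted p = 0.00211). In each of these genes the groups were far apart. HOXB9, which acts in the thoracic region in mice, had 9.28 and 8.25 FPKM in sgNAT10, against 27.09 and 33.25 FPKM in NC (log2 -1.67, SE 0.29, adjusted p = 0.00342). HOXB4, known for expanding blood stem cells, had 45.39 and 65.06 FPKM in sgNAT10, against 56.65 and 49.24 FPKM in NC (log2 0.04, SE 0.27, adjusted p = 0.920), and was called higher after the length and GC correction (log2 0.62, adjusted p = 0.0288). HOXB7 had 42.20 and 24.35 FPKM in sgNAT10, against 30.67 and 29.24 FPKM in NC (log2 0.10, SE 0.31, adjusted p = 0.830). The groups of HOXB4 and of HOXB7 overlapped, and the sgNAT10 libraries of each lay on both sides of the controls. HOXB5 (log2 -0.65, adjusted p = 0.156) and HOXB13 (log2 -0.54, adjusted p = 0.232) were not called, although both sgNAT10 libraries of each were below both controls. HOXB13 stood at 0.18 after the length and GC correction.

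**Figure D2:**
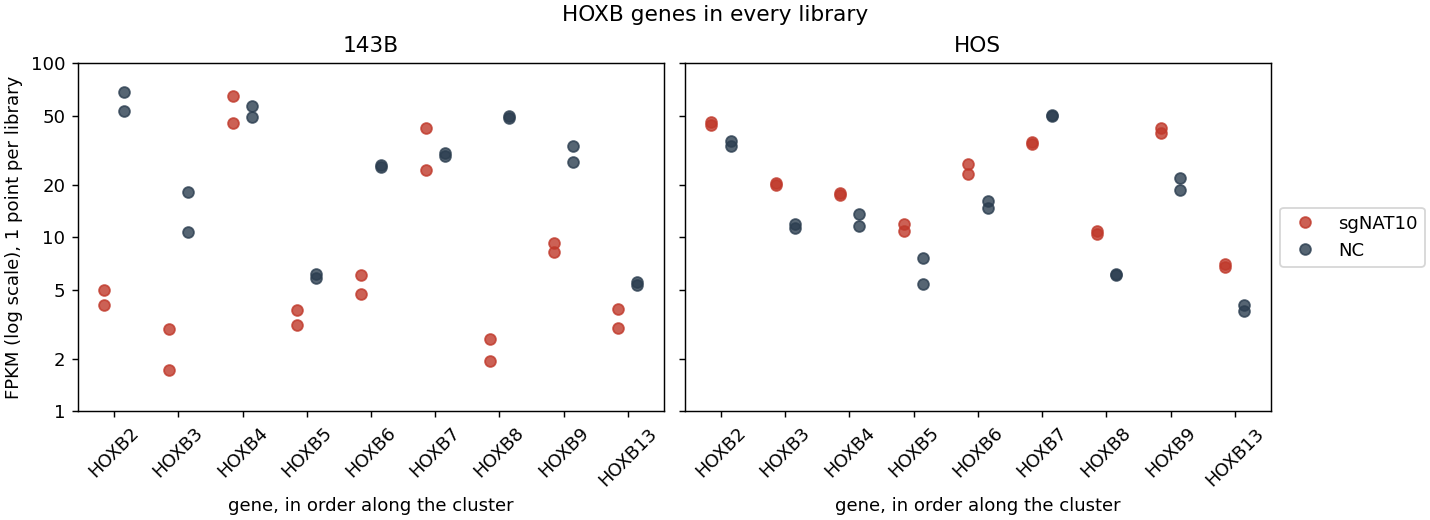
FPKM (log scale) of the 9 HOXB genes in each library, 143B left and HOS right, in order along the cluster; each point is 1 library. In 143B the sgNAT10 points of HOXB2, HOXB3, HOXB6, HOXB8 and HOXB9 lie far below the NC points while those of HOXB4 and HOXB7 lie among them; in HOS the points labelled sgNAT10 lie above NC in all but HOXB7.

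The genes that fell and those that were not called are interspersed along chromosome 17, where the cluster is on the minus strand of GRCh38 by the GENCODE annotation. HOXB2 lies at chr17:48540894-48544989, HOXB4 at chr17:48575513-48580111, HOXB7 at chr17:48607227-48633572 and HOXB8 at chr17:48611377-48614939, so that the annotated span of HOXB7 encloses HOXB8 and HOXB9. Exons of HOXB3 share bases on the same strand with HOXB4 and HOXB6, and exons of HOXB2, HOXB3, HOXB5 and HOXB6 lie opposite antisense transcripts. Of all 35 members, 8 share exon bases on the same strand with another HOX gene and 18 with a gene on the opposite strand. The labels do not say that strand was used, so reads of such partners cannot be told apart.

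HOXB8 is also the member with the longest match to any of 3 microRNAs encoded in the clusters. The match is shown because the clusters carry microRNAs known to act on HOX messages. Other microRNAs of the clusters were not searched. The mature sequences are from RefSeq (GRCh38.p14), 5′ to 3′, with the seed, bases 2 to 8, in capitals. MicroRNAs were not measured here.
hsa-miR-196a-5p: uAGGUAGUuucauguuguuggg
hsa-miR-196b-5p: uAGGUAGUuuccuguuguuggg
hsa-miR-10a-5p: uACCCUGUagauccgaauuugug
The miR-196 genes share a seed and lie at chr17:48632532-48632553 (minus strand), chr12:53991762-53991783 (plus strand) and, for miR-196b, chr7:27169528-27169549 (minus strand), and miR-10a lies at chr17:48579904-48579926 (minus strand). In the longest GENCODE coding transcript of HOXB8, 21 of 22 bases from position 1378 of 1823 are the exact complement of miR-196a-5p, and they are given in capitals here.
HOXB8 site: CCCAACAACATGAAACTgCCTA
Only exact complements were counted as matches, and a G opposite a U was not. The base in lower case is such a G within the seed match. HOXB8 thus lacks the exact 7 letters ACTACCT, the complement of the seed. Those letters stand in the longest coding transcript of 9 of 35 members, among them HOXA5, HOXA6, HOXA7, HOXA9, HOXB6, HOXB7, HOXB13 and HOXC8, and in 18.4% of 13341 listed genes. The letters ACAGGGT, for miR-10a, stand in 5 members, among them HOXA3, HOXB2, HOXB3 and HOXB5, and in 21.5% of the listed genes. By exact complement, no other member matched any of the 3 microRNAs at 3 or fewer mismatched bases. A match is a description of letters and not a measured site.

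In HOXA, 4 of 8 tested genes were called lower in 143B, mostly at the low numbers, and their levels were modest. HOXA4 had 2.11 and 2.01 FPKM in sgNAT10, against 7.65 and 8.58 FPKM in NC (log2 -1.57, SE 0.33, adjusted p = 0.00682). HOXA3, needed for the thymus and parathyroid in mice, had 0.52 and 1.02 FPKM in sgNAT10, against 2.24 and 4.58 FPKM in NC (log2 -1.28, SE 0.33, adjusted p = 0.0152), and after the length and GC correction it was not called (log2 -0.52, adjusted p = 0.101). HOXA9, a driver of acute leukaemia when overexpressed, had 2.65 and 5.07 FPKM in sgNAT10, against 7.37 and 15.58 FPKM in NC (log2 -1.32, SE 0.44, adjusted p = 0.0416), with controls that differed more from each other than the nearest libraries of the groups did. HOXA2, which patterns the second pharyngeal arch, had 0.60 and 0.80 FPKM in sgNAT10, against 1.44 and 2.19 FPKM in NC (log2 -0.72, SE 0.24, adjusted p = 0.0401). HOXA2 entered the test through NC alone, and was called as well with no filter on low values (adjusted p = 0.0416). None of these 4 calls held without sgNAT10 replicate 1 (adjusted p between 0.0881 for HOXA4 and 0.325 for HOXA2) or without sgNAT10 replicate 2 (adjusted p between 0.0503 for HOXA3 and 0.221 for HOXA2), and those of HOXA2 and HOXA9 were also lost without NC replicate 2 (adjusted p = 0.0668 and 0.108). HOXA7 had 11.35 and 4.01 FPKM in sgNAT10, against 5.72 and 5.91 FPKM in NC (log2 0.21, adjusted p = 0.748), its sgNAT10 libraries lying on both sides of the controls. HOXA10 and HOXA11 had log2 values of -0.60 and -0.84 and were not called, although both sgNAT10 libraries of each were below both controls. The value of HOXA11 was beyond that of HOXA2 (-0.72), so the low numbers of the calls depend on the threshold.

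In HOXC, 3 of 8 tested genes fell in 143B and HOXC8 rose. HOXC8, which acts in the lower cervical and thoracic region in mice, had 11.15 and 12.27 FPKM in sgNAT10, against 4.59 and 5.39 FPKM in NC (log2 1.09, SE 0.32, adjusted p = 0.0281), and was the one HOX gene of the line that passed in this direction. It no longer passed once sgNAT10 replicate 1 was left out (adjusted p = 0.233), nor without sgNAT10 replicate 2 (0.289), without NC replicate 1 (0.0516) and with a common sum per library (0.0977). HOXC13, the hair and nail gene, had 0.59 and 1.06 FPKM in sgNAT10, against 2.84 and 4.79 FPKM in NC (log2 -1.38, SE 0.31, adjusted p = 0.00907). HOXC11 had 1.53 and 1.92 FPKM in sgNAT10, against 5.01 and 5.42 FPKM in NC (log2 -1.19, SE 0.31, adjusted p = 0.0168). HOXC10, a hindlimb gene, had 11.48 and 9.08 FPKM in sgNAT10, against 18.99 and 23.16 FPKM in NC (log2 -0.97, SE 0.30, adjusted p = 0.0311). The called falls lay at numbers 10, 11 and 13, but HOXC4, HOXC5 and HOXC6 also had both sgNAT10 libraries below both controls. The log2 change of HOXC4 (-1.01), not called, was as large as that of HOXC10, so the position of the calls depends on the threshold. Without sgNAT10 replicate 1 all 3 calls were lost (adjusted p = 0.143 for HOXC13, 0.264 for HOXC11 and 0.112 for HOXC10), without sgNAT10 replicate 2 those of HOXC11 (0.177) and HOXC10 (0.246), and without NC replicate 2 that of HOXC10 (0.0819). HOXC10 was also not called under median-ratio scaling (adjusted p = 0.108), quantile normalization (0.0980) and the length and GC correction (0.122). HOXC4, HOXC5 and HOXC6, which share exons, had log2 values of -1.01, -0.85 and -0.67, and HOXC9 had -0.21, with none of them called.

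In HOXD, 1 of 5 tested genes fell in 143B, and the cluster's median log2 change was -0.14, but the sign of this median turned, to 0.24 when sgNAT10 replicate 1 was left out, to 0.0035 when NC replicate 2 was left out and to 0.11 with median-ratio scaling. HOXD11 had 0.53 and 0.62 FPKM in sgNAT10, against 6.06 and 4.72 FPKM in NC (log2 -2.01, SE 0.28, adjusted p = 0.00189), and its exons share bases on the same strand with HOXD10. It reached 1 FPKM in NC alone, and with no filter on low values it was called too (adjusted p = 0.00256). HOXD4 had 10.60 and 12.15 FPKM in sgNAT10, against 11.26 and 9.09 FPKM in NC (log2 0.15, adjusted p = 0.733), and HOXD9 had 13.44 and 12.25 FPKM in sgNAT10, against 15.33 and 13.50 FPKM in NC (log2 -0.15, adjusted p = 0.707). Corrected for transcript length and GC content, HOXD9 stood at 0.62 (adjusted p = 0.0106) and HOXD4 at 0.78 (adjusted p = 0.00317), and both were called higher. HOXD8 (log2 -0.14) and HOXD13 (log2 0.15) were not called either. In HOXD4, HOXD8 and HOXD13 the groups overlapped.

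**Figure D3:**
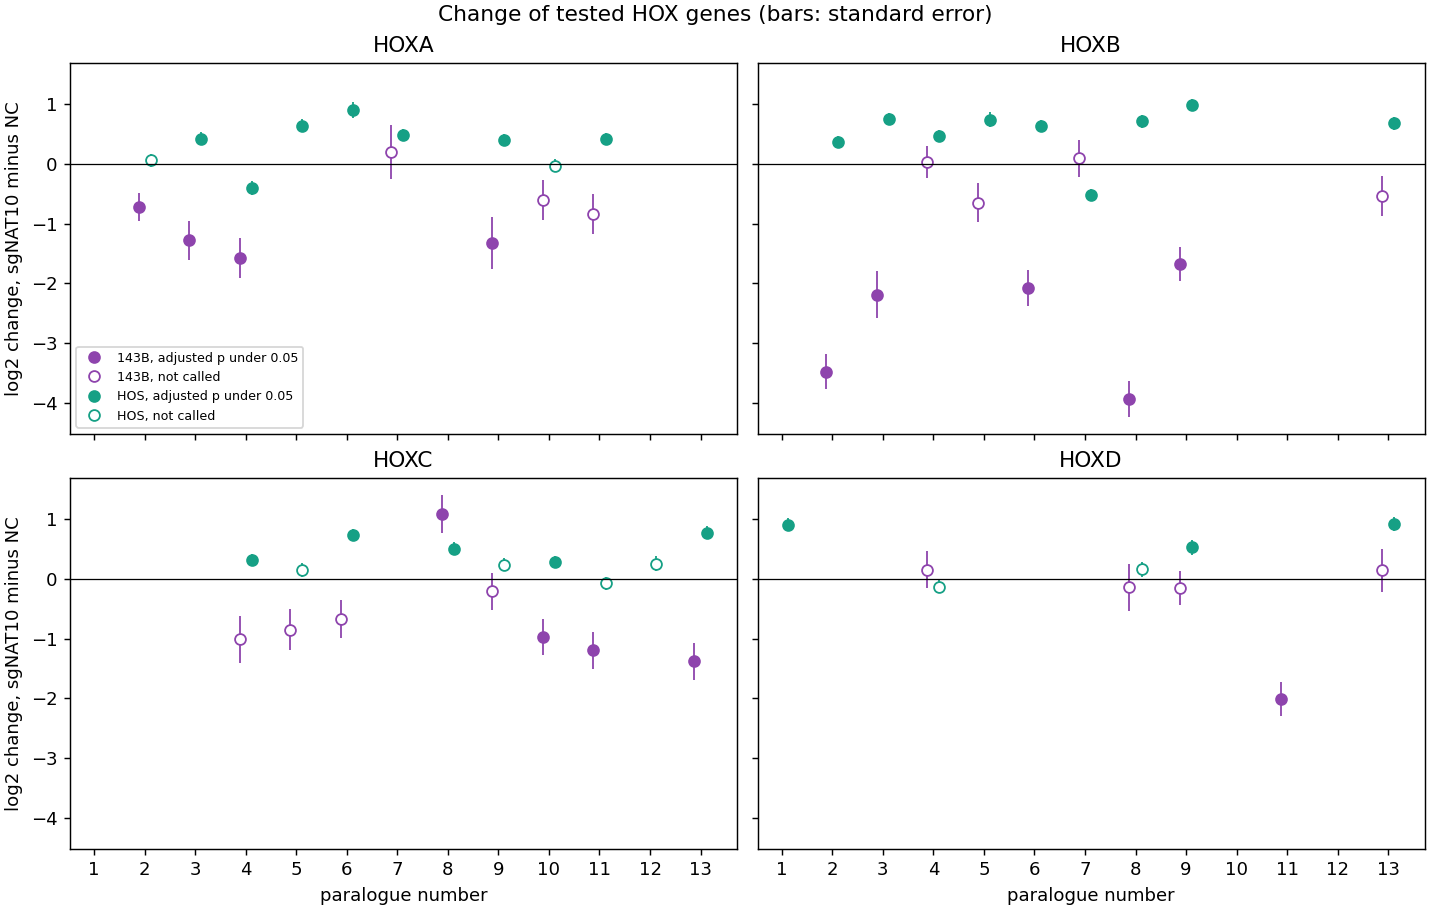
Log2 change, sgNAT10 minus NC, of tested HOX genes against their paralogue number, by cluster; points are 143B (purple) and HOS (green), filled where adjusted p was under 0.05, and bars are standard errors. HOXB8 (-3.94) and HOXB2 (-3.48) are the lowest 143B points, while the HOS points lie between -0.51 and 0.99.

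In HOS, HOX genes were mostly higher in the libraries labelled sgNAT10, by smaller steps. Of 33 tested members 22 rose and 2 fell, or 66.7% higher and 6.06% lower, where 45.5% of all 11957 genes were called higher and 23.0% lower, 68.5% in either direction. The balance was 16 higher and 4 lower under median-ratio scaling, or 48.5% and 12.1%, where 31.3% of all genes were called higher and 34% lower. Under quantile normalization it was 16 and 6, or 48.5% and 18.2%, beside 33% and 31.8% of all genes. After correction for transcript length and GC content it was 14 and 6, or 42.4% and 18.2%, beside 32.2% and 34% of all genes, and the calls of HOXA3, HOXA9, HOXA11, HOXB2, HOXB4, HOXB13, HOXC4 and HOXC10 were lost. The median log2 change of the 33 was 0.43, which is 0.24 above the median of all genes. When 1 spread per gene was estimated from both lines together, which leaves 29 members, 7 rose and 0 fell, or 24.1% higher beside 14.7% of all genes (HOXB5, HOXB8, HOXB9, HOXB13, HOXC6, HOXC13 and HOXD13). HOXA13, the hand and foot gene, was too low to be tested, with 1.07 and 0.99 FPKM in sgNAT10, against 0.69 and 0.48 FPKM in NC, and so was HOXD11, with 0.53 and 0.65 FPKM in sgNAT10, against 0.34 and 0.59 FPKM in NC.

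All 9 HOXB genes were called in HOS, 8 of them higher. HOXB9 had 42.68 and 39.85 FPKM in the libraries labelled sgNAT10, against 18.80 and 21.79 FPKM in NC (log2 0.99, SE 0.10, adjusted p = 3.76e-07). HOXB8 had 10.91 and 10.40 FPKM in sgNAT10, against 6.05 and 6.13 FPKM in NC (log2 0.72, SE 0.11, adjusted p = 1.71e-05). HOXB3 had 20.42 and 19.88 FPKM in sgNAT10, against 11.91 and 11.24 FPKM in NC (log2 0.75, adjusted p = 5.84e-06), and the replicates of each group lay close together. HOXB5 rose as well, with 11.95 and 10.83 FPKM in sgNAT10, against 5.36 and 7.58 FPKM in NC (log2 0.74, adjusted p = 9.06e-05). HOXB13, a prostate and tail-end gene, had 7.01 and 6.73 FPKM in sgNAT10, against 3.76 and 4.06 FPKM in NC (log2 0.68), and HOXB6 had 26.28 and 23.23 FPKM in sgNAT10, against 14.70 and 16.24 FPKM in NC (log2 0.64). HOXB4 (log2 0.47) and HOXB2 (log2 0.37) rose the least. The exception was HOXB7, the highest HOX gene of the HOS controls. It had 34.44 and 35.29 FPKM in the libraries labelled sgNAT10, against 50.42 and 49.80 FPKM in NC (log2 -0.51, SE 0.09, adjusted p = 9.06e-05), and fell also under median-ratio scaling and quantile normalization. HOXB2 missed the threshold when sgNAT10 replicate 1 was left out (adjusted p = 0.0712), and also with median-ratio scaling (log2 0.15, adjusted p = 0.174). After correction for length and GC content HOXB4 stood at -0.11 and HOXB13 at 0.10, neither called.

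In HOXA, 6 of 10 tested genes rose in HOS and HOXA4 fell. HOXA6 had 2.82 and 3.93 FPKM in the libraries labelled sgNAT10, against 1.22 and 1.42 FPKM in NC (log2 0.90, SE 0.13, adjusted p = 1.25e-05). HOXA5 had 9.32 and 10.16 FPKM in sgNAT10, against 5.87 and 5.84 FPKM in NC (log2 0.65, adjusted p = 5.47e-05). HOXA7 (log2 0.49), HOXA3 (log2 0.43), HOXA11 (log2 0.42) and HOXA9 (log2 0.41) rose by less. HOXA4 had 4.30 and 3.72 FPKM in sgNAT10, against 5.28 and 5.89 FPKM in NC (log2 -0.40, SE 0.11, adjusted p = 0.00573). HOXA4 was thus the one member called lower in both lines, although in HOS it missed the threshold without sgNAT10 replicate 2 (adjusted p = 0.131) and with a common sum per library (adjusted p = 0.102). HOXA3 was not called without sgNAT10 replicate 1 (adjusted p = 0.0519), nor HOXA9 without sgNAT10 replicate 2 (adjusted p = 0.107). Under median-ratio scaling HOXA3, HOXA9 and HOXA11 were not called (adjusted p = 0.0641, 0.12 and 0.0904). HOXA2 and HOXA10 lay within 0.07 of a log2 change of 0.

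In HOXC, 5 of 9 tested genes rose in HOS, and in HOXD 3 of 5 rose. In limma's fit 0 genes of either cluster fell, also at an unadjusted p under 0.05. HOXC6 had 40.56 and 37.89 FPKM in the libraries labelled sgNAT10, against 22.66 and 23.63 FPKM in NC (log2 0.74, SE 0.09, adjusted p = 3.91e-06). HOXC13 had 5.51 and 5.61 FPKM in sgNAT10, against 2.87 and 2.78 FPKM in NC (log2 0.78, adjusted p = 1.08e-05). HOXC8 had 10.74 and 9.86 FPKM in sgNAT10, against 6.53 and 7.41 FPKM in NC (log2 0.50, adjusted p = 0.000643), and is the one member called higher in both lines. HOXC4 (log2 0.31) and HOXC10 (log2 0.28) were called too, but not without sgNAT10 replicate 1 (adjusted p = 0.156 and 0.245), nor without sgNAT10 replicate 2 (adjusted p = 0.124 and 0.103), nor under median-ratio scaling (adjusted p = 0.428 and 0.591). Under that scaling HOXC11 (log2 -0.27) and HOXD4 (log2 -0.33) passed as lower, as they did under quantile normalization. HOXD13 had 3.08 and 3.03 FPKM in sgNAT10, against 0.95 and 1.34 FPKM in NC (log2 0.92, SE 0.12, adjusted p = 4.49e-06). HOXD1 had 1.75 and 1.67 FPKM in sgNAT10, against 0.43 and 0.46 FPKM in NC (log2 0.91, adjusted p = 2.58e-06). HOXD1 reached 1 FPKM only in the libraries labelled sgNAT10, so the filter favoured a rise, and without it 21 of 32 members rose. HOXD9 had 8.90 and 7.90 FPKM in sgNAT10, against 4.72 and 6.35 FPKM in NC (log2 0.53, adjusted p = 0.00127). HOXC5, HOXC9, HOXC11, HOXC12, HOXD4 and HOXD8 were not called, with log2 values between -0.13 for HOXD4 and 0.26 for HOXC12.

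The sgNAT10 change of many HOX genes differed between the lines when the difference itself was tested. Of 29 members tested in both lines, 18 had a lower change in 143B than in HOS and 0 a higher one, or 62.1%, with adjusted p under 0.05 in a limma fit of all 8 libraries. At an unadjusted p under 0.05 the counts were 20 lower and 0 higher, and the share of all genes at that threshold was not counted. At adjusted p under 0.05, 36.2% of all 10655 genes were called lower and 12.9% higher by the same test, 49.1% in either direction. After the length and GC correction 10 were lower and 5 higher, or 34.5% and 17.2%, beside 31.2% and 27.5% of all genes. These counts use the HOS groups as labelled, and NAT10 goes against those labels. With the HOS groups exchanged, an alternative chosen after seeing the data, 6 members were lower and 2 higher, or 20.7% and 6.9%, beside 17.6% and 13.1% of all genes. The 6 were HOXA4, HOXB2, HOXB3, HOXB6, HOXB8 and HOXC11, and the 2 were HOXC8 (1.59) and HOXD13 (1.07). With the groups as labelled, HOXB8 differed the most, by a log2 of -4.65 (SE 0.27, adjusted p = 2.15e-05), followed by HOXB2 (-3.85, adjusted p = 5.04e-05) and HOXB3 (-2.94, adjusted p = 0.000469). In these genes both libraries of 143B sgNAT10 were below their controls and both HOS libraries labelled sgNAT10 were above theirs. HOXB6 (-2.72), HOXB9 (-2.66) and HOXC13 (-2.16) came next. With the HOS groups exchanged the differences were -3.22 for HOXB8, -3.10 for HOXB2, -1.44 for HOXB3, -1.43 for HOXB6, -0.68 for HOXB9 (adjusted p = 0.0870) and -0.60 for HOXC13 (adjusted p = 0.177). Of the 29, 9 were called lower in 143B and higher in HOS, namely HOXA3, HOXA9, HOXB2, HOXB3, HOXB6, HOXB8, HOXB9, HOXC10 and HOXC13. How many of all genes had such opposite calls was not counted, so no excess can be read from the 9. The difference was called in 7 of 9 HOXB genes, 6 of 8 HOXC genes, 5 of 8 HOXA genes and 0 of 4 HOXD genes. The 4 HOXD genes had adjusted p between 0.0653 for HOXD13 and 0.573 for HOXD8. HOXB7 (0.61, SE 0.34) and HOXC8 (0.58, SE 0.28) had positive differences that were not called, with adjusted p = 0.170 and 0.109, and under quantile normalization and the length and GC correction both were called. The fit shares 1 spread per gene between lines, although replicates of HOS lay closer together. The calls of HOXB2, HOXB3, HOXB6, HOXB8, HOXB9, HOXC6 and HOXC13 held under every alternative that kept the HOS labels, and the others were each lost under at least 1.

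**Figure D4:**
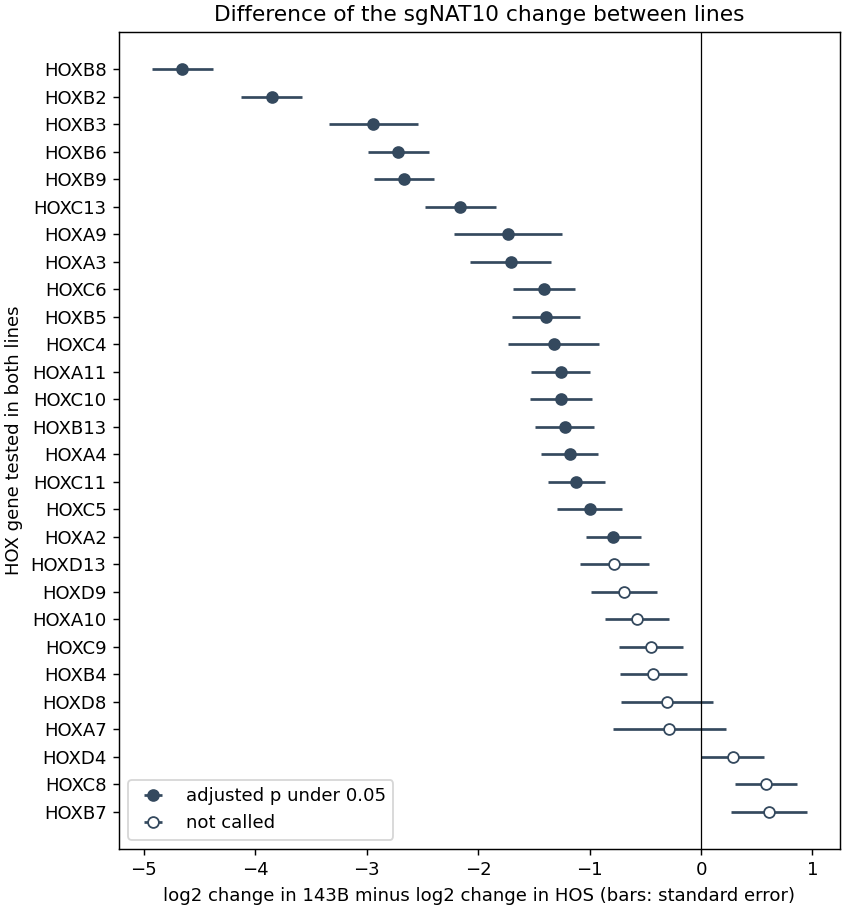
Log2 change in 143B minus log2 change in HOS for HOX genes tested in both lines, with the HOS groups as labelled and standard errors; filled points have adjusted p under 0.05. HOXB8 (-4.65) and HOXB2 (-3.85) lie farthest to the left, and the positive values of HOXB7 (0.61), HOXC8 (0.58) and HOXD4 (0.28) are open points.

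Summed over the 32 genes listed in both tables, HOX RNA was lower in 143B sgNAT10 and higher in the HOS libraries labelled sgNAT10. The sums were 225.1 and 231.0 FPKM in 143B sgNAT10, against 414.2 and 466.8 FPKM in 143B NC, and 453.1 and 443.2 FPKM in HOS sgNAT10, against 327.9 and 349.8 FPKM in HOS NC. The groups did not overlap in either line. By cluster, the ratio of the sgNAT10 mean to the NC mean in 143B was 0.433 for HOXB, 0.503 for HOXA, 0.650 for HOXC and 0.858 for HOXD, while in HOS it was between 1.26 for HOXA and 1.37 for HOXC. Shares within the HOX total do not depend on the scaling of a library. HOXB made up 51.9% and 52.2% of the HOX FPKM in 143B sgNAT10, against 63.9% and 60.9% in 143B NC. HOXD made up 14.2% and 15.9% in sgNAT10, against 9.89% and 8.39% in NC, and HOXC 22.5% and 22.3% in sgNAT10, against 16.8% and 18.7% in NC. The HOXA shares of 143B overlapped between groups. In HOS, HOXB made up 48.0% and 46.9% in the libraries labelled sgNAT10, against 47.5% and 47.5% in NC, so that the cluster makeup moved far less there.

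**Figure D5:**
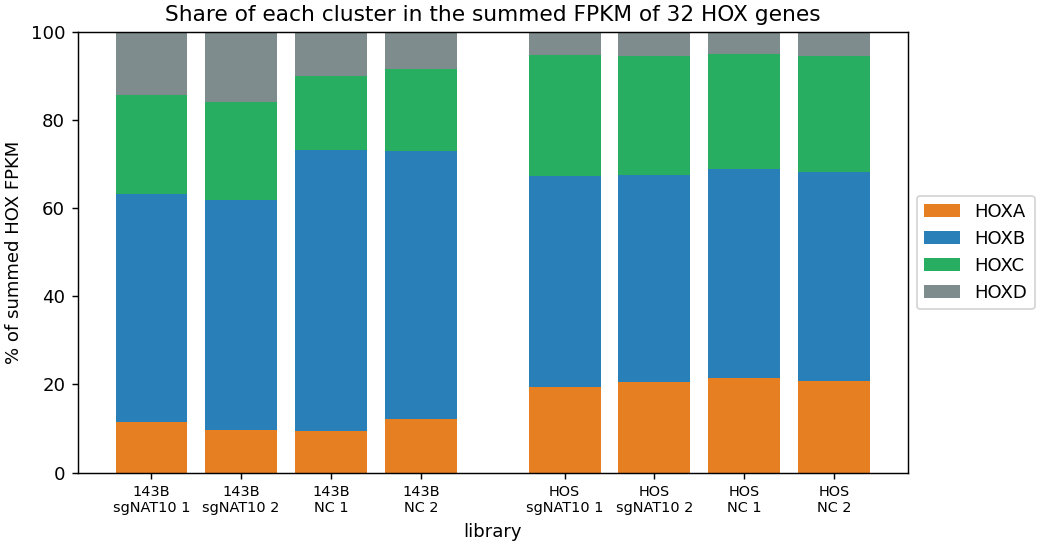
Share of each cluster in the summed FPKM of the 32 HOX genes listed in both tables, 1 bar per library, in percent. HOXB takes 51.9% and 52.2% in 143B sgNAT10, against 63.9% and 60.9% in 143B NC, and between 46.9% and 48.0% in the HOS libraries.

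By paralogue number, the shares shifted the most in 143B at numbers 2 and 4. HOXA2 and HOXB2 together made up 2.07% and 2.51% of the HOX FPKM in 143B sgNAT10, against 13.2% and 15.1% in 143B NC, most of it HOXB2. The 3 listed genes of number 8 made up 7.38% and 8.86% in sgNAT10, against 14.1% and 12.7% in NC, with HOXB8 lower and HOXC8 higher. The 4 genes of number 4 made up 27.5% and 37.2% in sgNAT10, against 20.3% and 17.4% in NC, most of it HOXB4. Their summed FPKM overlapped between groups, at 61.92 and 85.95 in sgNAT10 against 84.28 and 81.44 in NC, so a higher share was no higher level. Number 7 had 23.8% and 12.3% in sgNAT10, against 8.78% and 7.53% in NC, its sgNAT10 libraries lying far apart. Numbers 9 and 10 kept similar shares: number 9 had 16.2% and 14.9% in sgNAT10, against 14.8% and 15.8% in NC, and number 10 had 6.78% and 5.58% in sgNAT10, against 5.92% and 6.48% in NC. In HOS the clearest shift was at number 7, with 11.4% and 11.8% in the libraries labelled sgNAT10, against 18.8% and 17.8% in NC, where HOXB7 fell. Number 9 had 19.3% and 19.7% in HOS sgNAT10, against 15.9% and 16.5% in HOS NC.

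Promoter windows are shown for HOXD11, which fell in 143B, for HOXD4, which was not called in either line with the values as deposited, and for HOXA4, called lower in both. Each is the 250 bases before the RefSeq start (GRCh38.p14), in lower case, with motif matches in capitals. RefSeq windows were matched for 16 of the 35 members, none of them in HOXB.
HOXD11, chr2:176107030-176107279, plus strand: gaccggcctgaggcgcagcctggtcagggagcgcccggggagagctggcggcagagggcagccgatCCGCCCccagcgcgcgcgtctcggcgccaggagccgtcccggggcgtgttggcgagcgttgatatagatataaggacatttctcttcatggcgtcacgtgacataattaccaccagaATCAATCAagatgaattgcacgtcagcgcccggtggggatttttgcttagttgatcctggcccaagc
HOXD4, chr2:176151300-176151549, plus strand: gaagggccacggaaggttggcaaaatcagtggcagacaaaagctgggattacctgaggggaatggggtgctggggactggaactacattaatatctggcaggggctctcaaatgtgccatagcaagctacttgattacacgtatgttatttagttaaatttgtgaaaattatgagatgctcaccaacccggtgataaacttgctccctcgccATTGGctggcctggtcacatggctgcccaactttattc
HOXA4, chr7:27130758-27131007, minus strand: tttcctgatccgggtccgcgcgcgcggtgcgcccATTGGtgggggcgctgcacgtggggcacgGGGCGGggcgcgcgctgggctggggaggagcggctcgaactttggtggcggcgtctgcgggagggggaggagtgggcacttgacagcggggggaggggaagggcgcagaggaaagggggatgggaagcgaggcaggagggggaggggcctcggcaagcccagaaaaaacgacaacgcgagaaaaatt
Both strands were searched for the TATA box (TATAAA), the box bound by NF-Y (CCAAT) and the box bound by SP1-like factors (GGGCGG). A letter pattern of joint PBX and HOX binding (TGATNNAT) and the direct repeat of AGGTCA spaced by 5 bases, which retinoic acid receptors bind, were searched as well. Among the 16 windows 13 held the NF-Y box, 8 the SP1 box, 4 the TATA box, 2 the PBX and HOX pattern (HOXD11 and HOXA2) and 0 the direct repeat. Of 35116 promoter windows of the same length 32% held the NF-Y box, 42.6% the SP1 box, 10.7% the TATA box, 6.47% the PBX and HOX pattern and 0.00285% the direct repeat. HOXC4 and HOXC5 have the same window, since RefSeq gives them the same start. The windows differ in base makeup, with 23 CpG and 61.6% GC in HOXD11, 4 CpG and 47.6% GC in HOXD4 and 26 CpG and 70% GC in HOXA4, and a match is no sign of binding.

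Genes that act with HOX proteins or set HOX expression were counted over fixed lists, beside 25.4% lower and 12.9% higher among all genes in 143B and 45.5% higher and 23.0% lower in HOS. Of the partner genes of the PBX, MEIS and PKNOX families, whose proteins bind DNA with HOX proteins, 2 of 5 tested fell in 143B, MEIS3 (3.74 and 3.12 FPKM in sgNAT10, against 14.18 and 11.52 FPKM in NC, log2 -1.64) and PBX2 (log2 -1.18). In HOS 2 of 7 rose, or 28.6%, PBX3 (log2 0.65) and MEIS2 (log2 0.31), a share below that of all genes. Polycomb group genes, which keep HOX genes silent, fell in 8 of 28 cases and rose in 3 in 143B, or 28.6% and 10.7%, near the shares of all genes. Among them SUZ12 had 16.18 and 20.17 FPKM in sgNAT10, against 2.25 and 4.23 FPKM in NC (log2 2.21), and EED had 16.53 and 28.06 FPKM in sgNAT10, against 4.97 and 6.16 FPKM in NC (log2 1.79). Both encode core subunits of the complex that methylates histone H3 at lysine 27. CBX7 (log2 -1.39), of the other Polycomb complex, fell. In HOS 16 of 28 rose and 1 fell, or 57.1% and 3.6%, with PCGF6 (log2 0.84), PHF19 (log2 0.78) and KDM2B (log2 0.74) among those that rose. A further list held genes for MLL complexes and demethylases of the same lysine, which help keep HOX genes active. It also held other factors, DOT1L and AFF1 among them. Of 15 tested genes of this list 7 fell and 1 rose in 143B, or 46.7% and 6.7%. DOT1L (log2 -1.90), MEN1 (log2 -1.80), KMT2B (log2 -1.76) and KDM6B (log2 -1.51) led the falls. In HOS 13 of 19 rose and 2 fell, or 68.4% and 10.5%, KMT2A with 23.92 and 21.36 FPKM in the libraries labelled sgNAT10, against 9.53 and 8.95 FPKM in NC (log2 1.21), followed by AFF1 (log2 1.07), DOT1L (log2 0.97) and KMT2C (log2 0.89).

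Retinoic acid induces HOX genes of low number in embryos. Of 12 tested genes for its binding proteins, enzymes and receptors, 8 fell in 143B and 0 rose, or 66.7% lower. At an unadjusted p under 0.05 in limma's fit 10 were lower and 0 higher, and the share of all genes at that threshold was not counted. The list was not split into genes that make and genes that remove retinoic acid, so the counts give no direction of its supply. CRABP1, a binding protein, had 0.86 and 0.91 FPKM in sgNAT10, against 38.28 and 33.46 FPKM in NC (log2 -4.29). DHRS3 (log2 -4.09), ALDH1A3 (log2 -2.36) and ALDH1A2 (log2 -1.48), enzymes of the pathway, fell too. In HOS 7 of 14 rose and 4 fell, or 50% and 28.6%, near the shares of all genes, with RDH10 (log2 1.23), ALDH1A3 (log2 0.88), CYP26B1 (log2 0.86) and the receptor RARA (log2 0.75) in front. Other patterning factors of limb and skeleton fell in 11 of 26 cases and rose in 2 in 143B, or 42.3% and 7.7%, with TBX15 (log2 -2.10), DLX2 (log2 -2.07), ALX4 (log2 -1.80) and MSX2 (log2 -1.75). In HOS 19 of 28 rose and 1 fell, or 67.9% and 3.6%, with DLX2 (log2 1.59), TBX3 (log2 1.52), SIX2 (log2 1.42) and SIX4 (log2 1.20). Median log2 changes in 143B were -0.18 for the partners, -0.49 for Polycomb genes, -0.49 for MLL and demethylase genes, -1.10 for the retinoic acid genes and -0.61 for the other patterning factors, beside -0.25 for all genes and -0.78 for the HOX genes. In HOS these medians were 0.14, 0.29, 0.62, 0.26 and 0.50, beside 0.19 for all genes and 0.43 for the HOX genes.

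Genes that flank the clusters were called in both directions. Of 15 tested flanking genes 2 rose and 3 fell in 143B, or 13.3% and 20%, near the shares of all genes, with a median log2 change of -0.10. Of 16 in HOS 2 rose and 6 fell, or 12.5% and 37.5%, with a median of -0.10. Next to HOXD, LNPK had 10.10 and 11.45 FPKM in 143B sgNAT10, against 1.18 and 2.82 FPKM in 143B NC (log2 2.03), while MTX2 had 3.63 and 7.26 FPKM in sgNAT10, against 12.60 and 20.33 FPKM in NC (log2 -1.46). Near HOXC, CALCOCO1 fell (log2 -1.40) and CBX5 rose (log2 1.26) in 143B, and CBX5 rose in HOS (log2 0.86). In HOS, TAX1BP1, near HOXA (log2 -0.57), and PRAC2, between HOXB9 and HOXB13 (log2 -0.48), fell, and SNX11 rose (log2 0.47). The 19 antisense and long noncoding RNAs of the clusters that were looked for were not analysed here.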

How the data were processed

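Polyadenylated RNA of 8 libraries was analysed, 2 in each of 4 groups. The authors deposited FPKM values, per the file headers, in 1 table per line. Bowtie2, RSEM, DESeq2 and the GRCh38 build are given in the submitters' processing notes, without versions or roles, and no source used here names the annotation or strand setting. Every listed gene reached 0.5 FPKM in at least 2 libraries. Count models do not suit FPKM, and none was fitted. Depth is unknown. A gene entered the fit of a line if 2 or more of its libraries reached 1 FPKM. Values were fitted as log2(FPKM + 1) with limma 3.58.1 in R 4.3.3 (intensity trend, two-sided, Benjamini-Hochberg adjustment, threshold 0.05), each line alone, and with all 8 libraries together for the difference between lines. The fits were tested on simulated data. Members, lists and tests were chosen with earlier results of these data known. Full values were planned for called members and the 5 highest control levels of each line, and up to 4 called genes of each list are named. Some genes count in the totals but are not reported by name here. Genes named beyond that were chosen after their values were seen. Positions, lengths and GC contents came from GENCODE (GRCh38), in which 97.9% of symbols in the 143B table and 98% in the HOS table were found.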

Additional observations from a re-analysis of the deposited data

Results flagged for a closer look

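The sgNAT10 change differed between 143B and HOS, by the test of the difference itself (143B minus HOS, limma, all 8 libraries), in 18 HOX genes. In HOXB the log2 differences were -4.65 for HOXB8, -3.85 for HOXB2, -2.94 for HOXB3, -2.72 for HOXB6, -2.66 for HOXB9, -1.39 for HOXB5 and -1.22 for HOXB13. In HOXC they were -2.16 for HOXC13, -1.40 for HOXC6, -1.32 for HOXC4, -1.25 for HOXC10, -1.12 for HOXC11 and -0.998 for HOXC5. In HOXA they were -1.73 for HOXA9, -1.71 for HOXA3, -1.26 for HOXA11, -1.18 for HOXA4 and -0.79 for HOXA2. The median difference over all genes was -0.44. HOXA11, HOXB5, HOXB13, HOXC4, HOXC5 and HOXC6 were not called in 143B alone, and HOXA2, HOXC5 and HOXC11 were not called in HOS alone. With the HOS groups exchanged, an alternative chosen after seeing the data because NAT10 goes against the HOS labels, 6 of the 18 were called, HOXA4, HOXB2, HOXB3, HOXB6, HOXB8 and HOXC11.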

How the results depend on the processing

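Counts of HOX genes that changed moved with the processing, and so did the shares of all genes called. In 143B, 13 fell and 1 rose, beside 25.4% and 12.9% of all genes. With a replicate block 21 fell, or 70%, beside 43% of all genes. With a common sum 0 rose, beside 7.5% of all genes, and with length and GC correction 4 rose, beside 26.8%. Leaving out 1 library at a time gave 6 to 15 falls and 0 to 1 rises. In HOS, 22 rose and 2 fell; 7 rose and 0 fell with the spread shared by all 8 libraries, 1 fell with a common sum, 16 rose and 4 fell with median-ratio scaling, 16 and 6 with quantile normalization and 14 and 6 with length and GC correction, while leave-one-out gave 18 to 23 rises and 1 to 2 falls. The HOS counts were 22 and 2 with the replicate block and 23 and 2 with its numbers crossed, a pairing chosen after seeing the data. A rescaling without ribosomal protein and MTRNR2L genes was not planned either. It gave 11 falls and 1 rise in 143B, or 36.7% and 3.3%, beside 23% and 11.8% of all genes. In HOS it gave 24 rises and 2 falls, or 72.7% and 6.1%, beside 48.3% and 21.4%. The difference under it was lower in 18 and higher in 0, or 62.1% lower, beside 36% and 11.5%. The difference between lines was lower in 18 and higher in 0; the higher counts were 1 with median-ratio scaling, 3 with quantile normalization, 5 with length and GC correction (10 lower) and 2 with the replicate block (22 lower), and leave-one-out gave 14 to 21 lower and 0 to 1 higher. With the replicate block 47.7% of all genes were called lower and 21.3% higher in the difference. Same-numbered libraries deviated together with r = 0.61 in 143B and -0.11 in HOS, from 2 pairs each, so the numbers were not taken as pairs. Median log2 changes in 143B were -1.01 over all clusters and -1.21 in HOXA with a pseudocount of 0.1, -1.05, -1.02 in HOXA and -1.98 in HOXB with a common sum, and -0.58 in HOXA and -1.40 in HOXB with median-ratio scaling. In HOS they were 0.61 over all clusters, 0.60 in HOXA, 0.86 in HOXB, 0.49 in HOXC and 0.72 in HOXD with a common sum, and 0.25, 0.20, 0.49, 0.086 and 0.33 in the same order with median-ratio scaling. Leave-one-out medians ran in 143B from -1.08 to -0.63 in HOXA and from -0.14 to 0.24 in HOXD, positive without sgNAT10 replicate 1 or NC replicate 2, and in HOS from 0.35 to 0.71 in HOXD. Summed control levels were 500.5 FPKM in 143B NC and 315.6 FPKM in HOS NC with a common sum. With the HOS groups exchanged, chosen after seeing the data, the difference was lower in 6 and higher in 2. Sign changes were found near 0 and also for called values. Under the length and GC correction, HOXA3 and HOXB4 in HOS and the difference of HOXB13 turned, although called with the values as deposited. The turned values of HOXD9 in 143B, of HOXC12 in HOS and of HOXB4 and HOXD9 in the difference were themselves called. Members never called turned too. In 143B they were HOXD8 (under 5 alternatives), HOXC9 (3), HOXA7 (2), HOXB7 (2) and HOXD13 (2). In HOS it was HOXA2 (3) and in the difference HOXD8 (5). For named members called at least once, signs turned as follows. In 143B they turned for HOXB4 (-0.29) and HOXD4 (-0.16) with a common sum, HOXD9 with median-ratio scaling (0.11), quantile normalization (0.23) and length and GC correction (0.62), and HOXB13 with length and GC correction (0.18), and leave-one-out gave HOXB4 -0.21 to 0.30. In HOS they turned with length and GC correction for HOXA3 (-0.067), HOXB4 (-0.11), HOXC5 (-0.18), HOXC9 (-0.043) and HOXC12 (-0.32), with a common sum for HOXA10 (0.17), HOXC11 (0.11) and HOXD4 (0.047), with the rescaling that leaves out ribosomal protein genes for HOXA10 (0.0081), with median-ratio scaling for HOXC5 (-0.020) and HOXD8 (-0.027), and with quantile normalization for HOXC5 (-0.14), HOXC9 (-0.0026), HOXC12 (-0.034) and HOXD8 (-0.13). Leave-one-out gave HOXA10 -0.13 to 0.076 and HOXC11 -0.15 to 0.0059. Differences turned with length and GC correction for HOXA7 (0.45), HOXA10 (0.21), HOXB4 (0.73), HOXB13 (0.088), HOXC9 (0.38) and HOXD9 (0.40), with median-ratio scaling and quantile normalization for HOXA7 (0.18 and 0.21), HOXB4 (0.063 and 0.054) and HOXC9 (0.022 and 0.17), and with a common sum for HOXD4 (-0.20); leave-one-out gave HOXA7 -0.93 to 0.37. With the HOS groups exchanged they turned for HOXA7 (0.70), HOXB4 (0.51), HOXB5 (0.099), HOXB7 (-0.41), HOXB13 (0.14), HOXC6 (0.067), HOXC9 (0.035), HOXD9 (0.38) and HOXD13 (1.07). The cause of these shifts was not tested. Over named members called at least once and their alternatives, 1285 values kept their direction and side of the threshold. Of the rest, 113 lost a call and 65 gained a call, and 49 had the other sign. Members never called are not in this tally. Depth is unknown, so no limit of detection can be given.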
